A study of Mus musculus with 4 samples.

Results

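The contractile genes of smooth muscle were followed in lungs of mice that lacked the transcription factor ERG in endothelial cells (ECs) and in their controls. The set holds 7 genes that were chosen by name, namely Acta2, Tagln, Cnn1, Tpm2, Myh11, Myl9 and Des, and all 7 were among the 20076 genes of the deposited single-cell count tables. They were read in mural cells, fibroblasts and ECs as markers of contractile, myofibroblast or mesenchymal character. Each of the 4 libraries came from the whole lung of 1 mouse. WT mice, with 2 libraries, carried floxed Erg alleles (ERG fl/fl) and no Cre. ERG CKO mice, also with 2 libraries, carried the same floxed alleles together with CDH5-CreER(T), in which the promoter of the EC gene Cdh5 drives a tamoxifen-dependent Cre, so that recombination was directed at ECs and not at contractile cells. Mice of both groups received tamoxifen in 5 daily doses of 0.5 mg, and their lungs were taken 90 days afterwards. The line was kept on a C57/BL6 background, and the age of these 4 mice was not given in the sources used here.

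The tables held 9363 cells, between 1852 and 3097 a library, with a median of 4611 to 4899 unique molecular identifiers (UMIs, counted RNA molecules) per cell and between 11263911 and 18646776 UMIs a library. At most 6 cell barcodes of a library recurred in another one. The transcript of Erg itself did not follow the labels: in ECs it stood at 86.0 and 87.7 counts per 1000000 UMIs of the class (CPM) in the WT libraries and at 105 and 82.4 CPM in the ERG CKO libraries (log2 fold change 0.08 ± 0.15 SE, adjusted p = 0.866, edgeR). These tables do not separate parts of a transcript, so libraries are grouped below by their labels. Clustering gave 2523 ECs, 431 fibroblasts and 170 mural cells.

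Smooth muscle cells contract when myosin motors pull on actin filaments, a step that starts with phosphorylation of the myosin regulatory light chain. The same genes serve as markers of myofibroblasts, the contractile fibroblasts of fibrotic lung, and of ECs that acquire mesenchymal features. Many of them are driven by serum response factor, which binds a short DNA element called the CArG box. In the lung they mark the walls of airways and arteries most strongly, and pericytes of the capillaries carry some of them at lower levels.

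Acta2 (chromosome 19, 34241090 to 34255590, minus strand, GRCm38, GENCODE M21) encodes smooth muscle alpha-actin, and Tpm2 (chromosome 4, 43514711 to 43523765, minus strand) encodes beta-tropomyosin, which lies along the actin filament. Tagln (chromosome 9, 45929619 to 45936058, minus strand) encodes the actin-binding protein transgelin, also called SM22alpha, and Cnn1 (chromosome 9, 22099216 to 22109630, plus strand) encodes calponin, which binds actin and restrains the myosin ATPase. Myh11 (chromosome 16, 14194535 to 14291372, minus strand) encodes the smooth muscle myosin heavy chain and Myl9 (chromosome 2, 156775420 to 156781658, plus strand) a regulatory light chain. Des (chromosome 1, 75360329 to 75368579, plus strand) encodes desmin, the intermediate filament protein of muscle cells and pericytes. Tagln overlaps Pcsk7 on the opposite strand. The strand setting of the counting is not given in the sources used here, so reads of that pair may not be fully separable.

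Promoters of 5 members were in the RefSeq table used here, those of Acta2, Tpm2, Cnn1, Myl9 and Des. The 250 bases before the annotated start are printed for Acta2 and Myl9, which hold CArG-like boxes and are the members whose levels differed most between the groups in fibroblasts and mural cells. Capitals mark each 10-base match to the CArG box on either strand, with at most 1 base of the 6-base core other than A or T.
Acta2 (chr19:34255374-34255623, minus strand, GRCm38.p6): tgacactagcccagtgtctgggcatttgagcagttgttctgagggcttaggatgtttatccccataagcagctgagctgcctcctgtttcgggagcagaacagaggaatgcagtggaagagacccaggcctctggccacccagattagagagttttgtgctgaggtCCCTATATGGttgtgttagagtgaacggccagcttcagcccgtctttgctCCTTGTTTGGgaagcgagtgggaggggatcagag
Myl9 (chr2:156775214-156775463, plus strand, GRCm38.p6): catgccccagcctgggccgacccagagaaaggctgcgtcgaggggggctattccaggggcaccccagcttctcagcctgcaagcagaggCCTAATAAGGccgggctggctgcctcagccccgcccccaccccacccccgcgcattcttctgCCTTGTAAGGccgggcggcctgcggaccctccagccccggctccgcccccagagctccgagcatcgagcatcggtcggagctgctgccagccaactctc
The boxes of Acta2, which both hold 1 other core base, end 75 and 25 bases before the start. In Myl9 the first box is an exact CArG box that ends 152 bases before the start, and the second, with 1 other core base, ends 90 bases before it. No box was found in these windows of Des, Tpm2 and Cnn1. Of 32851 promoters of the same length, 482 (1.47%) hold an exact CArG box and 2823 (8.59%) hold one with at most 1 other core base. The matches are described from the letters alone.

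The members did not share a single cell class. Over the 13 named classes of the 4 libraries, Myh11 and Des were highest in mural cells and overlapped no other class there, Tagln was highest in fibroblasts, and Tpm2 and Myl9 were highest in platelets. Desmin reached 419 ± 93.7 CPM in mural cells (SD, n = 4 libraries) and 73.2 ± 14.1 CPM in fibroblasts. Myh11, the most restricted marker of differentiated smooth muscle in the set, reached 105 ± 19.4 CPM in mural cells and 13.1 ± 5.61 CPM in fibroblasts, the class below platelets. Tagln stood at 243 ± 84.2 CPM in fibroblasts and 95.6 ± 69.4 CPM in mural cells, and the libraries of these classes overlapped.

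Acta2 had its highest mean in mural cells, at 105 ± 117 CPM, and its SD was larger than its mean. Neutrophils followed at 70.8 ± 28.1 CPM and overlapped mural cells, whereas fibroblasts, at 34.0 ± 18.1 CPM, lay below every neutrophil library. With the libraries pooled, neutrophils (69.0 CPM) and mural cells (68.3 CPM) were level for Acta2. Tpm2 stood at 484 ± 311 CPM in platelets, 82.3 ± 27.5 CPM in mural cells and 34.2 ± 6.19 CPM in fibroblasts, with no overlap between these neighbours. Myl9, whose product also regulates the myosin of platelets, stood at 1691 ± 622 CPM in platelets, 249 ± 145 CPM in mural cells and 67.8 ± 35.6 CPM in fibroblasts. The last pair overlapped.

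**Figure D1:**
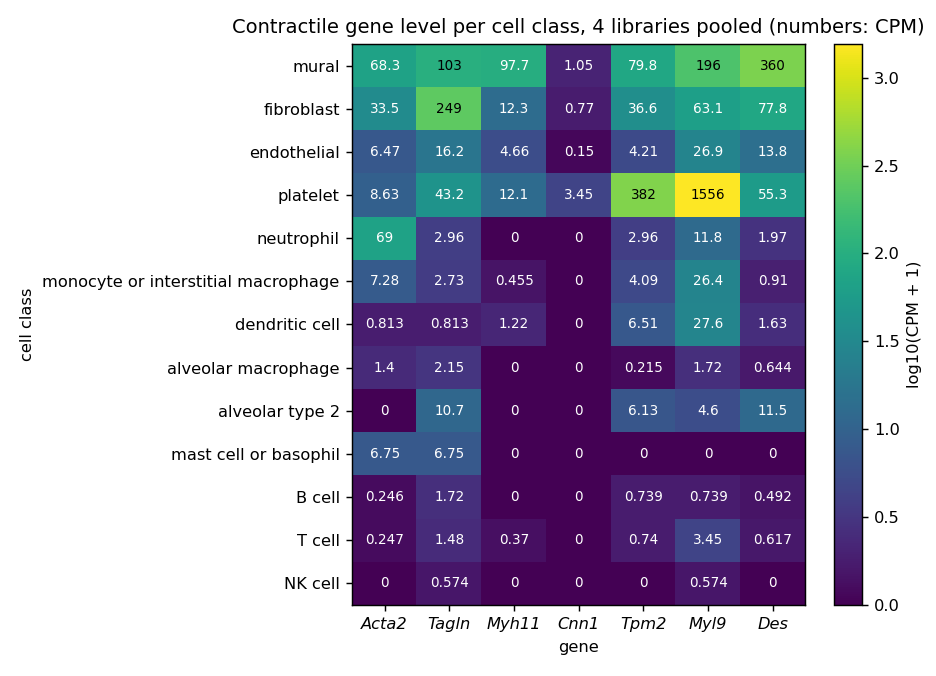
Level of each contractile gene (columns) in each cell class (lines of the map) with the 4 libraries pooled. The number is the CPM and the colour log10(CPM + 1). Des (360 CPM) and Myh11 (97.7 CPM) peak in mural cells, Tagln (249 CPM) in fibroblasts, and Tpm2 (382 CPM) and Myl9 (1556 CPM) in platelets.

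The set was sparse. Cnn1 had 7 UMIs in 7 cells of the whole dataset and was tested in no class. Acta2 had 371 UMIs in 174 cells, and the 11 cells with at least 5 UMIs held 41.2% of them. Tagln had 1095 UMIs in 413 cells, Myh11 213 in 157, Tpm2 519 in 294, Myl9 1857 in 735 and Des 855 in 482. The 42 cells with at least 5 Tagln UMIs held 51.1% of its total, and 34 of these were fibroblasts.

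No cluster could be called smooth muscle. The mural class had 8 of 9 pericyte markers past the marker rule and 1 of 9 smooth muscle markers (Rasl12). Of the smooth muscle list, Map3k7cl, Nrip2, Ntf3, Hhip and Lgr6 had no UMI in the 170 mural cells. The summed level of that list in mural cells was 115 and 164 CPM in the WT libraries and 154 and 167 CPM in the ERG CKO libraries. The mural class in which the contractile genes are read below is thus one led by pericyte markers.

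Mural cells made up 2.96% and 2.19% of the cells in the WT libraries and 1.36% and 0.756% in the ERG CKO libraries. Both ERG CKO shares lay below both WT shares, by 1.52 percentage points on average (exact permutation test, two-sided p = 0.333, the smallest p that 2 against 2 libraries allow). Over the whole lung, where fewer cells of a type and less RNA per cell cannot be told apart, Myh11 stood at 5.10 and 3.98 CPM in WT and 3.75 and 1.33 CPM in ERG CKO. The libraries of Myh11 did not overlap, and neither did those of Myl9, at 17.8 and 26.7 CPM in WT and 47.7 and 31.2 CPM in ERG CKO. Of all genes tested, both ERG CKO libraries lay below both WT libraries for 18.4% and above them for 16.9%.

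None of the 6 members tested in the whole lung passed an adjusted p of 0.05 in edgeR, the threshold for a call, nor did any other gene (0% of 14154), and DESeq2 called none of the members and 1.13% of all genes. With no filter on low counts the members called were also 0, beside 0.683%. The unadjusted p was under 0.05 for 1 member (Myl9, log2 fold change 0.82 ± 0.29 SE, adjusted p = 0.617) and for 7.61% of all genes. Acta2 over the whole lung stood at 3.19 and 9.40 CPM in WT and 7.88 and 4.62 CPM in ERG CKO. Its groups overlapped, with a log2 fold change of -0.00 ± 0.57 SE, which was 1.02 without WT replicate 2, where 55 of 125 UMIs came from 1 cell, and -0.61 without WT replicate 1. The summed level of the platelet marker list was 123 and 340 CPM in WT and 497 and 345 CPM in ERG CKO. Without the cells that held Ppbp or Pf4, the log2 fold change of Myl9 was 0.23 (adjusted p = 0.981) in place of 0.82, and that of Tpm2 -0.67 in place of 0.05.

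**Figure D2:**
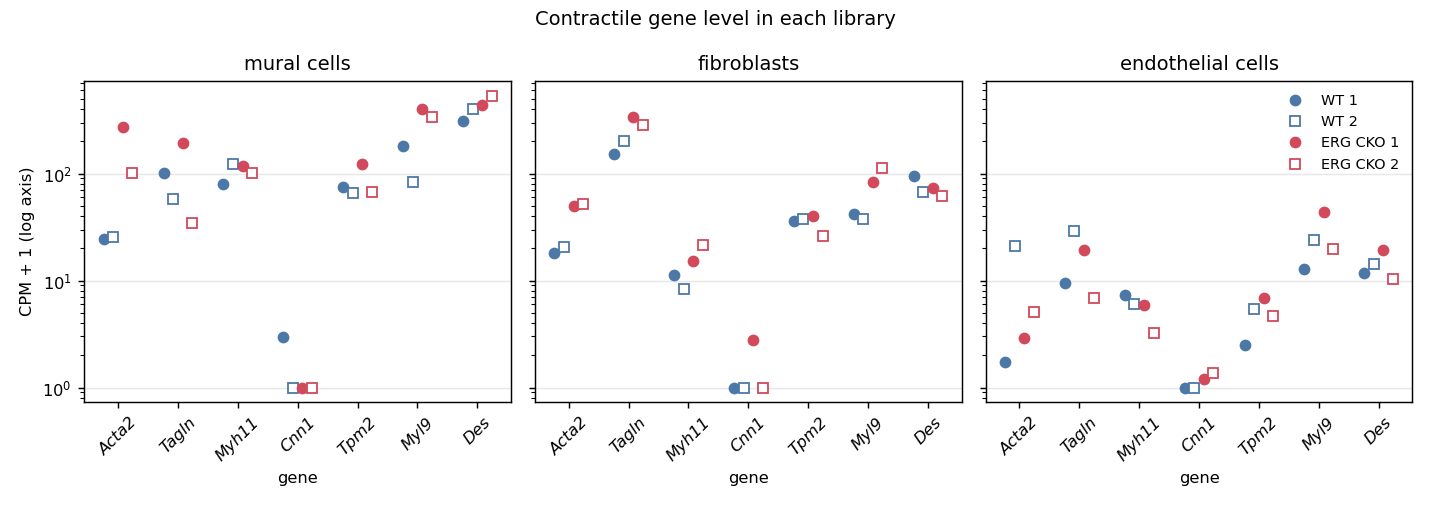
Level of each contractile gene in mural cells, fibroblasts and ECs of each library, as CPM + 1 on a log axis, with 1 point for each WT and ERG CKO library. In fibroblasts the ERG CKO points of Acta2, Tagln, Myl9 and the untested Myh11 lie above the WT points, and in ECs the points of Acta2, Tagln, Tpm2, Myl9 and Des interleave.

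In fibroblasts, 3 of the 5 members tested were higher in both ERG CKO libraries than in both WT libraries, namely Acta2, Tagln and Myl9, and none passed the adjusted threshold. Of all genes tested in fibroblasts, 17.9% had both ERG CKO libraries above both WT libraries. Smooth muscle alpha-actin stood at 17.0 and 19.6 CPM in the WT libraries and at 48.5 and 50.7 CPM in the ERG CKO libraries, from 15, 8, 54 and 10 UMIs. The groups of Acta2 were separate, and their distance exceeded the spread within either (log2 fold change 1.45 ± 0.38 SE, edgeR adjusted p = 0.122).

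Tagln stood at 151 and 199 CPM in WT and at 339 and 284 CPM in ERG CKO, from 133, 81, 377 and 56 UMIs. Both ERG CKO libraries were again the higher ones (log2 fold change 0.88 ± 0.23 SE, adjusted p = 0.140). Myl9 stood at 40.9 and 36.8 CPM in WT and at 81.8 and 112 CPM in ERG CKO, with a log2 fold change of 1.21 ± 0.30 SE and an adjusted p of 0.0960. The study named Acta2 and Tagln for the fibroblasts of these same libraries, so their direction here is not independent evidence.

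The other tested members showed no such separation. Tpm2 stood at 35.2 and 36.8 CPM in WT and at 39.5 and 25.3 CPM in ERG CKO, and its groups overlapped (log2 fold change 0.03 ± 0.35 SE). Des stood at 93.1 and 66.2 CPM in WT and 72.8 and 60.8 CPM in ERG CKO, also overlapping (-0.23 ± 0.28 SE). Myh11, from 9, 3, 16 and 4 UMIs, stood at 10.2 and 7.36 CPM in WT and 14.4 and 20.3 CPM in ERG CKO, and Cnn1 had 2 UMIs in all. The libraries of Myh11 did not overlap, but both genes fell under the filter on low counts and were not tested.

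By edgeR 0 of the 5 members tested in fibroblasts were called, beside 59 of 7897 genes (0.747%), and DESeq2 also called 0, beside 0.393%. The unadjusted p was under 0.05 for 3 members (Acta2, Tagln and Myl9) and for 8.78% of all genes. Without ERG CKO replicate 2, which has 27 fibroblasts, the log2 fold change was 1.45 for Acta2 and 1 for Tagln. With no filter on low counts Acta2, Tagln and Myl9 were all called (adjusted p = 0.0409, 0.0467 and 0.0174), beside 1.33% of all genes.

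The shares of fibroblasts with at least 1 UMI had the same order. Acta2 was detected in 6.99% (95% Wilson interval 3.84 to 12.4) and 5.33% (2.09 to 12.9) of WT fibroblasts and in 12.4% (8.38 to 17.9) and 14.8% (5.92 to 32.5) of ERG CKO fibroblasts. Tagln was detected in 32.9% (25.7 to 40.9) and 21.3% (13.6 to 31.9) of WT fibroblasts and in 50.5% (43.4 to 57.6) and 51.9% (34.0 to 69.3) of ERG CKO fibroblasts. Intervals and floors cover counting error only. In T cells, which do not use these genes, Acta2 was detected in 0.153% and Tagln in 0.841% of cells at a median of 6128 UMIs, against a median of 3769 UMIs in fibroblasts.

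ERG CKO fibroblasts were shallower, with a median of 2358 and 3522 UMIs against 5012 and 4387 in WT. After thinning every cell to 1000 UMIs, which leaves out shallower cells, Tagln was detected in 12.7% and 8.06% of WT fibroblasts and 21.3% and 36.4% of ERG CKO fibroblasts. The thinned shares of Tagln thus kept their order. For Acta2 they were 1.59% and 3.23% in WT fibroblasts, against 3.68% and 4.55% in ERG CKO, which rest on few cells, and no order is read from them.

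RNA of other cells differed between the same fibroblast libraries. All 6 genes of the platelet list had UMIs there, and their summed level was 72.7 and 68.7 CPM in WT and 531 and 790 CPM in ERG CKO fibroblasts. Ppbp or Pf4, chemokine genes of platelets, had a UMI in 9.09% and 13.3% of the fibroblasts of WT mice, against 33.9% and 55.6% in ERG CKO mice. Left to the fibroblasts without either gene, Acta2 stood at 20.0 and 26.8 CPM in WT and 77.4 and 93.7 CPM in ERG CKO (log2 fold change 1.82), and Tagln at 169 and 254 against 468 and 388 CPM (1.02). Myl9 stood at 42.7 and 43.5 CPM in WT and 64.2 and 66.9 CPM in ERG CKO in those cells, with its log2 fold change at 0.57 in place of 1.21.

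EC transcripts were also present. All 8 genes of the EC list had UMIs in fibroblasts, at a summed level of 4613 and 5601 CPM in WT and 6041 and 5366 CPM in ERG CKO. Pecam1, Cdh5, Cldn5 or Tie1 had a UMI in 50.4% and 42.7% of WT fibroblasts and in 57.5% and 66.7% of ERG CKO fibroblasts. In the 202 fibroblasts without any of these, Acta2 stood at 36.7 and 46.0 CPM in WT and 179 and 277 CPM in ERG CKO, the last from 9 cells. The log2 fold change of Acta2 was 2.21 there and that of Tagln 1.65. The haemoglobin genes stood at 5475 CPM in the fibroblasts of ERG CKO replicate 1 and at 27.0 to 50.7 CPM in the other libraries. All 9 pericyte markers had UMIs in fibroblasts, and summed to 761 and 326 CPM in WT and 301 and 1363 CPM in ERG CKO. Of the cells in the pericyte subclusters described below, 22 and 2 were in the fibroblast class. The part of red cell or pericyte RNA was not tested.

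**Figure D3:**
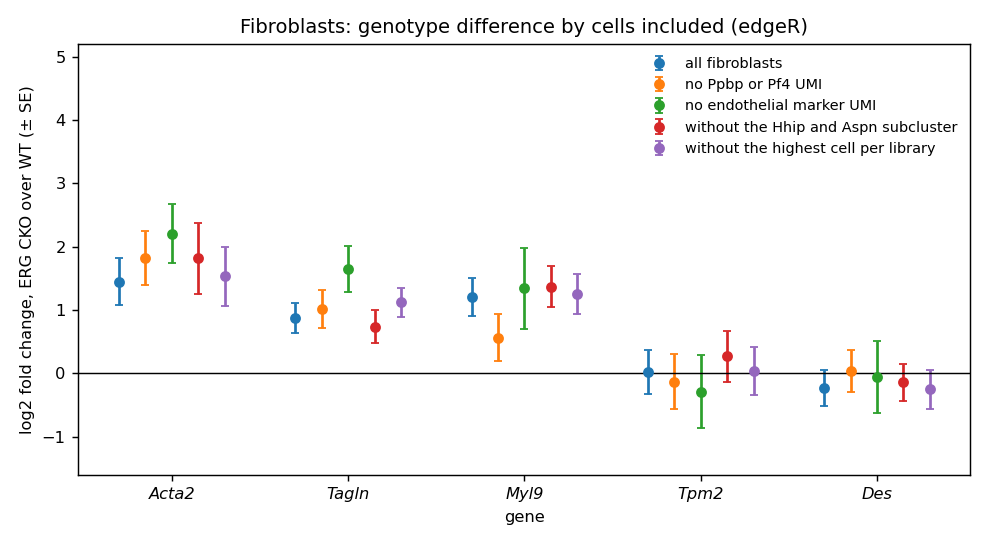
Log2 fold change of 5 members in fibroblasts, ERG CKO over WT, with bars of 1 standard error (edgeR), for all fibroblasts and with cells of a given kind left out (colours). Acta2, Tagln and Myl9 are above 0 in each selection, and Myl9 is lowest, at 0.57, without cells that hold Ppbp or Pf4.

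The contractile RNA of fibroblasts was uneven among them. A subcluster of 17 cells led by Hhip, Aspn and Mustn1 held 38 of the 87 Acta2 UMIs and 97 of the 647 Tagln UMIs. It carried markers of both myofibroblasts and smooth muscle and was given neither name. Its cells numbered 8 and 3 in the WT libraries and 5 and 1 in the ERG CKO libraries, and Acta2 stood there at 245, 101, 685 and 1420 CPM in that order. Myh11 had 6 UMIs and Cnn1 0 UMIs in these cells (0 of 17 cells).

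Without the subcluster Acta2 stood at 4.79 and 15.5 CPM in WT fibroblasts and 31.4 and 25.8 CPM in ERG CKO fibroblasts, with the groups separate (log2 fold change 1.81 ± 0.56 SE, adjusted p = 0.286). Tagln stood at 129 and 206 CPM in WT and 291 and 243 CPM in ERG CKO (0.74 ± 0.26 SE, adjusted p = 0.391). In the 80 alveolar fibroblasts, cells of the gas-exchange wall, Tagln stood at 208 and 594 CPM in WT and 340 and 269 CPM in ERG CKO, and the groups overlapped. These cells had 8 Acta2 UMIs and none of Myh11. In the 23 adventitial fibroblasts, which sheath vessels and airways, Acta2 stood at 16.1 and 81.3 CPM in WT and 169 and 0 CPM in ERG CKO, from 14 UMIs in 4 cells. The subtypes had fewer than 10 cells in at least 1 library and were not tested.

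The summed level of the myofibroblast marker list (Aspn, Hhip, Lgr6, Cdh4 and P2ry14) ran the other way, with all 5 genes detected. It was 511 and 353 CPM in WT fibroblasts and 163 and 76 CPM in ERG CKO fibroblasts. The smooth muscle list, with 7 of 9 genes detected and Nrip2 and Olfr558 at 0, summed to 437 and 383 CPM in WT and 236 and 177 CPM in ERG CKO. Both sums were lower in both ERG CKO libraries, where Acta2 and Tagln were higher, but Hhip and Lgr6 are in both lists and the subcluster of 17 cells carried most of either sum. Without it the myofibroblast list summed to 26.3 and 43.8 CPM in WT and 28.6 and 5.16 CPM in ERG CKO, and the smooth muscle list to 94.5 and 113 against 111 and 61.9 CPM. The groups of both sums then overlapped. Fibroblasts made up 6.32% and 3.49% of WT cells and 6.01% and 1.46% of ERG CKO cells (exact permutation test, two-sided p = 0.667).

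In mural cells the levels of Myl9 and Des lay higher in both ERG CKO libraries, as did those of Acta2, and none of the members was called. Of all genes tested in mural cells, 18.4% had both ERG CKO libraries above both WT libraries. Acta2 stood at 23.3 and 24.6 CPM in WT and at 271 and 100 CPM in ERG CKO, from 12, 6, 44 and 3 UMIs. It passed the filter on low counts only through the ERG CKO libraries, so the fit had to place it higher there (log2 fold change 3.23 ± 0.46 SE, edgeR adjusted p = 0.137).

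A single cell of ERG CKO replicate 1 held 39 of the 44 Acta2 UMIs of that library. The same cell held 21 Tagln and 7 Myh11 UMIs, and it had no UMI of Pecam1, Cdh5, Cldn5 or Tie1. The 3 UMIs of ERG CKO replicate 2 also came from 1 cell. With the highest cell left out in each library, Acta2 stood at 9.84 and 4.16 CPM in WT and 31.9 and 0 CPM in ERG CKO, and the groups overlapped. With no filter on low counts Acta2 was called (3.12, adjusted p = 4.65e-07), beside 0.15% of all genes. Without ERG CKO replicate 1 the log2 fold change of Acta2 was 1.83, and without ERG CKO replicate 2 it was 3.52. Without WT replicate 1 it was 3.06, and without WT replicate 2 it was 3.15.

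Acta2 was detected in 7.46% and 4.26% of WT mural cells and in 4.76% and 7.14% of ERG CKO mural cells, 10 cells of 170 in all. The share of mural cells with Acta2 thus overlapped between the groups. Their median depth was 5736 and 3833 UMIs in WT and 1946 and 1071 UMIs in ERG CKO.

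Tagln in mural cells stood at 101 and 57.3 CPM in WT and 191 and 33.4 CPM in ERG CKO, so that 1 ERG CKO library was the highest and the other the lowest. Without ERG CKO replicate 1 its log2 fold change turned from 0.88 to -1.54. Myh11 stood at 79.5 and 123 CPM in WT and 117 and 100 CPM in ERG CKO. The smooth muscle myosin thus overlapped between the groups (log2 fold change 0.20 ± 0.41 SE).

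Des stood at 309 and 397 CPM in WT and 437 and 534 CPM in ERG CKO. Both ERG CKO libraries were higher, by a log2 fold change of 0.38 ± 0.32 SE (adjusted p = 0.963). Desmin was detected in 71.6% and 74.5% of mural cells in WT mice, against 64.3% and 35.7% in ERG CKO mice and 0.382% of T cells. Myl9 stood at 179 and 81.8 CPM in WT and 401 and 334 CPM in ERG CKO (1.44 ± 0.41 SE, adjusted p = 0.949). Without ERG CKO replicate 2, which has 14 mural cells, the log2 fold change of Myl9 was 1.56. The platelet list summed to 134 and 147 CPM in WT and 1343 and 100.2 CPM in ERG CKO mural cells, with all 6 genes detected. Without the mural cells that held Ppbp or Pf4 the log2 fold change of Myl9 was 1.81 (adjusted p = 0.218). Pecam1, Cdh5, Cldn5 or Tie1 had a UMI in 73.1% and 59.6% of WT mural cells and 73.8% and 50.0% of ERG CKO mural cells. In mural cells without them Des stood at 574 and 757 CPM in WT and 756 and 267 CPM in ERG CKO. The groups of Des overlapped there, with the last value from 7 cells. Myl9 stood at 234 and 108 CPM in WT and 517 and 356 CPM in ERG CKO in these cells, with separate groups.

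In the pericyte subclusters alone, with 57 and 39 cells in WT and 27 and 5 cells in ERG CKO, Myh11 stood at 79.0 and 119 CPM in WT and 158 and 51.6 CPM in ERG CKO. Des stood there at 310 and 399 CPM in WT and 447 and 619 CPM in ERG CKO. As in the whole mural class, the groups overlapped for Myh11 and did not for Des, and no test was made. The pericyte subclusters held 22 and 2 cells of the fibroblast class, so they are not wholly a part of the mural class.

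Tpm2 stood at 73.7 and 65.5 CPM in WT mural cells and 123 and 66.8 CPM in ERG CKO mural cells, with overlapping groups. By edgeR 0 of the 6 members tested and 0% of 4084 genes were called in mural cells. DESeq2 called 0 members and 0.049% of all genes. The unadjusted p was under 0.05 for Myl9 and for 4.97% of all genes. That of Acta2 was also under 0.05, but the filter on low counts had fixed its direction, so it is not counted.

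**Figure D4:**
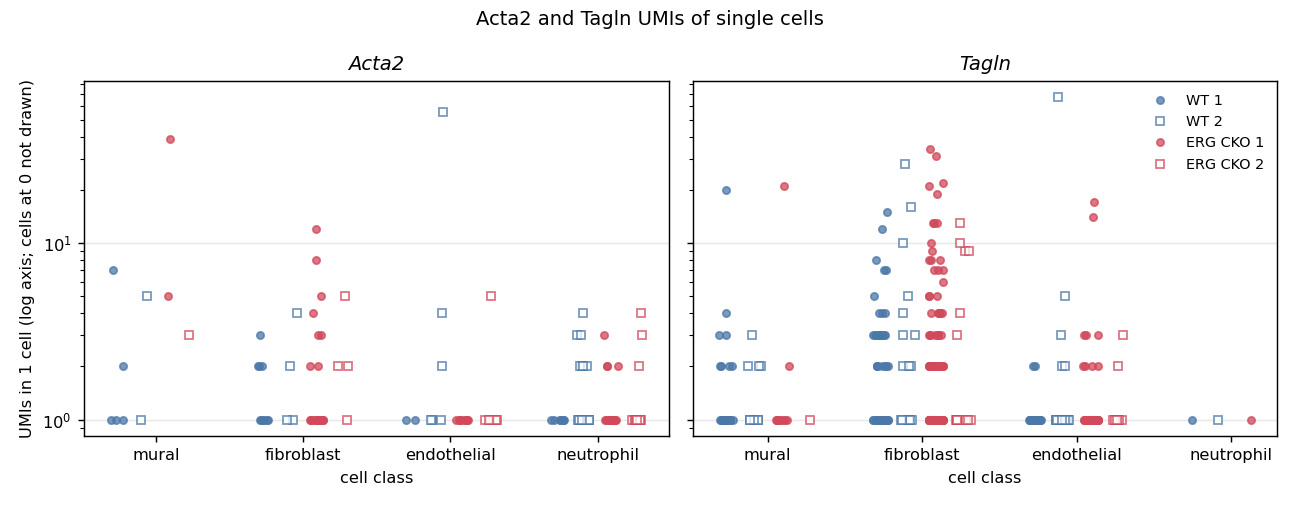
Acta2 (left) and Tagln (right) UMIs of single cells on a log axis, in mural cells, fibroblasts, ECs and neutrophils, by library. Each point is a cell with at least 1 UMI of the gene. The highest mural value of Acta2, 39 UMIs, belongs to a cell of ERG CKO replicate 1, and the highest EC value, 55 UMIs, to a cell of WT replicate 2.

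Among ECs the contractile genes were low in both groups and none was called. Acta2 stood at 0.742 and 20.0 CPM in WT and at 1.91 and 4.08 CPM in ERG CKO, from 2, 64, 9 and 11 UMIs. The WT libraries lay on either side of both ERG CKO libraries. A single cell of WT replicate 2, in a cluster led by Slc6a2, Cytl1 and Vwf, held 55 of the 64 UMIs. The same cell held 67 Tagln UMIs and no Myh11, Tpm2 or Myl9 UMI.

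With the highest cell left out in each library, EC Acta2 stood at 0.374 and 2.83 CPM in WT and 1.70 and 2.26 CPM in ERG CKO. Without WT replicate 2 the log2 fold change of Acta2 turned from -1.97 ± 1.05 SE to 1.84 and that of Tagln from -0.55 to 0.55. Tagln stood at 8.53 and 28.2 CPM in WT and 18.5 and 5.94 CPM in ERG CKO, with overlapping groups. Acta2 was detected in 24 of 2523 ECs (0.951%) at a median of 4493 UMIs, against the 0.153% of T cells.

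Myl9 stood at 11.9 and 23.2 CPM in WT ECs and 42.7 and 18.6 CPM in ERG CKO ECs, so the groups overlapped (log2 fold change 0.80 ± 0.43 SE, adjusted p = 0.431). It was called without ERG CKO replicate 2 (1.23, adjusted p = 0.00266) and its log2 fold change was -0.01 without ERG CKO replicate 1. Ppbp or Pf4 had a UMI in 7.13% and 11.1% of the ECs of WT mice, against 30.2% and 15.3% in ERG CKO mice. In the ECs without them Myl9 stood at 5.29 and 3.67 CPM in WT and 8.86 and 8.05 CPM in ERG CKO.

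Tpm2 stood at 1.48 and 4.38 CPM in WT ECs and 5.94 and 3.71 CPM in ERG CKO ECs, and Des at 10.8 and 13.2 against 18.5 and 9.28 CPM. The groups of both genes overlapped. Myh11 stood at 6.30 and 5.01 CPM in WT and 4.88 and 2.23 CPM in ERG CKO, the 1 member with both ERG CKO libraries below both WT libraries, as 19.2% of all genes tested in ECs had. By CPM none of the tested members lay above in both ERG CKO libraries, which 27.6% of the genes did. Cnn1 had 1 UMI in each ERG CKO library and none in WT. By edgeR 0 of the 6 members tested in ECs were called, beside 323 of 10713 genes (3.02%), and DESeq2 also called 0, beside 3.29%. None had an unadjusted p under 0.05, beside 16.6% of all genes. With no filter on low counts Acta2 (-1.96, adjusted p = 0.00013) and Myl9 (0.81, adjusted p = 0.00541) were called, beside 6.81% of all genes.

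**Figure D5:**
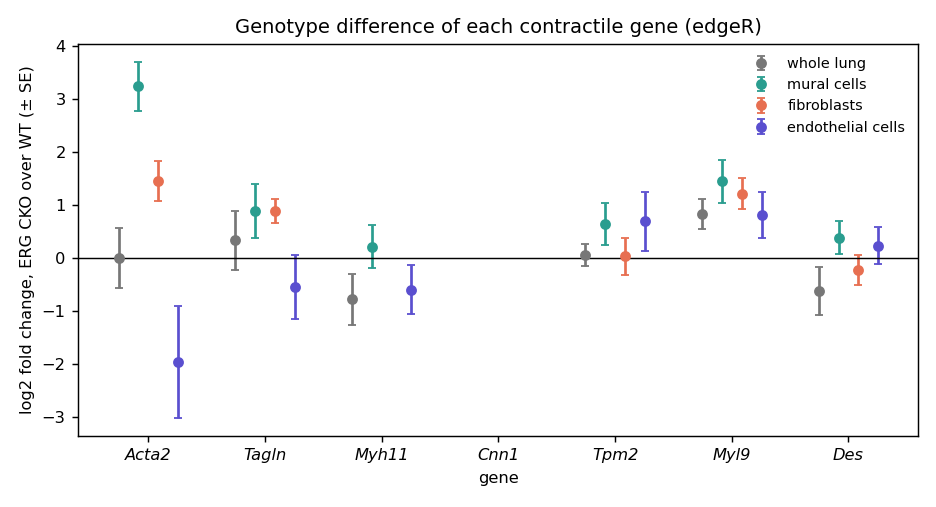
Log2 fold change of each contractile gene, ERG CKO over WT, in the whole lung, mural cells, fibroblasts and ECs, with bars of 1 standard error (edgeR). Genes under the filter on low counts have no point, no member was called in any of the classes, and the largest values are those of Acta2, at 3.23 in mural cells and -1.97 in ECs, which both rest on single cells.

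The difference in response between classes was fitted directly, and the EC counts include the cell of WT replicate 2 described above. For Acta2 the EC log2 fold change lay below that of fibroblasts by 2.92 (-2.92 ± 0.92 SE, adjusted p = 0.315), and for Tagln by 1.28 (-1.28 ± 0.44 SE, adjusted p = 0.381). Between mural cells and fibroblasts the difference was 1.84 ± 0.64 SE for Acta2 (adjusted p = 0.628) and -0.09 for Tagln. None of the members was called in either comparison, in which 0.726% and 0.133% of all genes were called. Between ECs and fibroblasts the difference of Acta2 was 0.20 without WT replicate 2 and -4.27 without WT replicate 1. It was -3.41 without ERG CKO replicate 2 and -1.19 with the highest cell left out in each library. The difference of Tagln was -2.23 without ERG CKO replicate 1 and -0.50 without WT replicate 2. Between mural cells and fibroblasts that of Acta2 was 0.18 without ERG CKO replicate 1, and that of Tagln -2.45.

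Contractile genes were often found together in mural cells. At least 3 members had a UMI in 32.4% of mural cells, 14.4% of fibroblasts, 0.951% of ECs and no T cell. Of the 41 fibroblasts with Acta2, 28 also had Tagln and 9 had Myh11. Of the 24 ECs with Acta2, 4 had Tagln and 1 had Myh11. ECs with at least 3 members numbered 1 and 2 in the WT libraries and 17 and 4 in the ERG CKO libraries, and ECs with platelet genes were also most frequent in the first of these.

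Further genes of the contractile apparatus were listed beside the members. In ECs 8 of 14 such genes were tested and 2 rose in ERG CKO (3.02% of all genes were called), Cald1, which encodes the actin-binding protein caldesmon, and Tpm1, which encodes alpha-tropomyosin. Cald1 stood at 165 and 148 CPM in WT and 269 and 303 CPM in ERG CKO ECs (log2 fold change 0.83 ± 0.13 SE, adjusted p = 0.0235). Tpm1 stood at 79.4 and 83.0 CPM in WT and 141 and 183 CPM in ERG CKO ECs (0.95 ± 0.15 SE, adjusted p = 0.0239). The groups of both genes were separate, in contrast to those of Acta2 and Tagln. The unadjusted p was under 0.05 for 5 of the 8, beside 16.6% of all genes. Among these 5, Pdlim3 fell (log2 fold change -1.68, adjusted p = 0.117) and the others lay higher in ERG CKO. The median log2 fold change of the 8 genes was 0.37, against 0.01 over all genes tested in ECs. Cald1 and Tpm1 are also used by non-muscle cells. The haemoglobin genes stood at 34.9 and 50.4 CPM in WT and 1505 and 2199 CPM in ERG CKO ECs. The part of red cell or platelet RNA in the rises of Cald1 and Tpm1 was not tested.

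In fibroblasts 7 genes of that list were tested and edgeR and DESeq2 called 0, with 2 at an unadjusted p under 0.05 (8.78% of all genes). Those with the most UMIs were Csrp1 (log2 fold change 0.18), Mylk, the kinase of the myosin light chain (0.12), and Ppp1r14a, an inhibitor of the myosin phosphatase (-0.55, adjusted p = 0.474). Tpm1 had the largest log2 fold change of the 7 (0.92 ± 0.23 SE, adjusted p = 0.107), close to its value in ECs. It stood at 120 and 115 CPM in WT and 201 and 258 CPM in ERG CKO fibroblasts, with separate groups. The median of the 7 genes was 0.25 against 0.00 over all genes. In mural cells 7 were tested and both tools called 0, with 0 at an unadjusted p under 0.05 and a median of 0.30 against -0.04. The most abundant were Ppp1r14a (log2 fold change 0.21), Cald1 (-0.15) and Mylk (0.30). Mylk stood there at 404 and 397 CPM in WT and 511 and 501 CPM in ERG CKO. Among the myofibroblast matrix genes, 6 of 9 were tested in ECs, where 3.02% of all genes were called. Only Fn1, which encodes fibronectin, rose there (1.76 ± 0.35 SE, adjusted p = 0.0452). It stood at 4.08 and 5.32 CPM in WT and 13.2 and 20.8 CPM in ERG CKO ECs. In fibroblasts its level was 444.1 to 707.5 CPM. Of the 7 tested in fibroblasts both tools called 0, with 2 at an unadjusted p under 0.05, beside 8.78% of all genes. Col1a1, with the most UMIs, stood at 910 and 589 CPM in WT and 488 and 608 CPM in ERG CKO. Its groups overlapped, with a log2 fold change of -0.47 (adjusted p = 0.582). Fn1 and Lox, next by UMIs, had log2 fold changes of 0.45 and 0.04. Tnc, which encodes tenascin C, had a log2 fold change of 0.54 and Ltbp2, a matrix protein gene, 1.31 (adjusted p = 0.434). Tnc and Ltbp2 were named by the study for the fibroblasts of these libraries. Of the genes listed for a mesenchymal transition, edgeR called 0 of 7 tested in ECs, 0 of 6 in fibroblasts and 0 of 5 in mural cells, and DESeq2 called 1, 0 and 0. The unadjusted p was under 0.05 for 2, 2 and 0 of them, beside 16.6%, 8.78% and 4.97% of all genes in these classes. Among them Cdh2, which encodes N-cadherin, had a log2 fold change of 2.70 in ECs (adjusted p = 0.0613) and Vim, which encodes vimentin, 0.02. Zeb1 and Zeb2, next to Vim by UMIs in ECs, had log2 fold changes of 0.09 and -0.04.

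Of the 8 EC identity genes tested in ECs, Emcn, an EC surface sialomucin, rose (1.49, adjusted p = 0.00679) and Tek, the angiopoietin receptor, fell by 0.99 on the log2 scale (adjusted p = 0.0129). Of all genes tested in ECs 3.02% were called. The unadjusted p was under 0.05 for 4 of the 8 and for 16.6% of all genes. Emcn also rose in the fibroblast class (2.40, adjusted p = 0.000181), where the EC list was detected in full. Of the regulators of contractile genes, Srf, Mkl1 and Mkl2 were tested in ECs. Both tools called 0 of these, beside 3.02% (edgeR) and 3.29% (DESeq2) of all genes. None had an unadjusted p under 0.05, beside 16.6% of all genes. The log2 fold changes of Srf, Mkl1 and Mkl2 were 0.34, -0.69 and 0.04.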

How the data were processed

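Single-cell suspensions of whole lung were profiled on the 10x Genomics platform in 2 WT and 2 ERG CKO mice. The deposited values are UMI counts per gene and cell, made by the authors with Cell Ranger 3.1.0 on mm10 according to the submitters' processing notes, and every deposited cell had at least 300 genes. The members and gene lists were chosen with earlier results of these data known. Cells with at least 200 genes, here all 9363, were aligned between libraries and clustered with Seurat 5.3.0 (2000 variable genes, 30 components, resolution 0.8), leaving 57 listed genes out. Clusters were named from at least 3 markers found in at least 10% of their cells at a log2 fold of at least 1. The 60 doublets called (0.641%) were kept in.

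Counts were summed per library and class and tested with edgeR 4.0.16 (quasi-likelihood, TMM, filterByExpr, Benjamini-Hochberg over all genes tested, adjusted p of 0.05). DESeq2 1.42.0, no filter, other clusterings, thinning to 1000 UMIs and left-out replicates were alternatives, and settings that leave out cells with platelet or EC genes, the highest cell or the Hhip and Aspn subcluster, and left-out replicates in the comparison of classes, were chosen after seeing the data. A class was tested only with at least 10 cells in every library, but alternatives that select cells left ERG CKO replicate 2 with 9 fibroblasts or 7 mural cells without EC genes and 8 mural cells when thinned. On simulated data edgeR recovered 94.6% of the changed genes in fibroblasts and 76.4% in mural cells. The median absolute log2 fold change of those genes was 2.09 in fibroblasts and 1.97 in mural cells. Recovery at smaller log2 fold changes, such as those of the members in fibroblasts, was not tested. Replicates of a group differed by more than sampling noise (chi-square per degree of freedom 15.9 in WT and 17.4 in ERG CKO), and p-values measure the spread between single mice. All 7 members are named, and of the other lists the genes called in a class, or otherwise those with the most UMIs. Tnc, Ltbp2, Cdh2 and Pdlim3, and Tpm1 in fibroblasts, were added after their values were seen. T cells served as the class that lacks the members.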

Additional observations from a re-analysis of the deposited data

How the results depend on the processing

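Each member in the whole lung and each class, and the class differences of Acta2 and Tagln, were recomputed under the alternatives. Of these values 343 kept their direction and side of the threshold, 22 passed it only under the alternative and 38 changed sign. The counts per library, down to 3 UMIs of Acta2 in the mural cells of ERG CKO replicate 2, limit what can be detected. A fit that leaves a group with 1 library assumes that it varies like the other group. The cause of each change was not tested. Smooth muscle, pericyte, alveolar and adventitial fits were not run, because a library had fewer than 10 cells or no such class was found.

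Among the members that changed sign, leaving out a replicate gave log2 fold changes from -2.86 to 1.84 for EC Acta2, -1.73 to 0.55 for EC Tagln, -0.01 to 1.37 for EC Myl9, -0.44 to 0.59 for EC Des, -0.48 to 0.08 for fibroblast Des, -0.53 to 0.17 for fibroblast Tpm2, -1.54 to 1.33 for mural Tagln, -0.31 to 0.83 for mural Tpm2, -0.18 to 0.45 for mural Myh11, -0.61 to 1.02 for whole-lung Acta2, -0.93 to 0.96 for whole-lung Tagln, -0.16 to 0.29 for whole-lung Tpm2, -4.27 to 0.20 for Acta2 between ECs and fibroblasts and -2.45 to 0.57 for Tagln between mural cells and fibroblasts. Sign turned without WT replicate 2 for EC Acta2, EC Tagln, whole-lung Acta2 and the EC difference of Acta2. It turned without WT replicate 1 for fibroblast Des, fibroblast Tpm2 (-0.02), mural Myh11, whole-lung Tpm2 and the mural difference of Tagln, and without ERG CKO replicate 2 for that difference (0.23) and whole-lung Acta2 (0.32). The other turns, and again fibroblast Tpm2 and mural Myh11, came without ERG CKO replicate 1. Whole-lung Acta2, at -0.00, was 0.01 with RLE scaling, 0.00 without doublets, 0.13 with the replicate block, 0.21 thinned, 0.49 without Ppbp or Pf4 and 0.32 without the highest cell, and whole-lung Tpm2 was -0.33, -0.67 and -0.04 under the last 3 of these. Without cells with Ppbp or Pf4, EC Des was -0.28, fibroblast Des 0.04 and Tpm2 -0.13. Without cells with EC genes, fibroblast Tpm2 was -0.29 and mural Des -0.22. Without the highest cell, EC Tagln was 0.44 and mural Myh11 -0.15. Fibroblast Tpm2 was -0.06 in DESeq2, -0.01 with the replicate block, -0.03 at a mitochondrial share of at most 10% and -0.04 with the listed genes kept in clustering.

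Genes called in the whole lung numbered 160 in DESeq2, 137 with no filter, 41 thinned and 1 to 25 with a replicate left out. In mural cells they numbered 2, 20, 8 and 0 to 68, with 3 at the mitochondrial limit, 3 with the lists kept, 2 at resolution 0.4, 3 with no alignment, 3 without Ppbp or Pf4, 15 without EC genes and 11 without the highest cell. In fibroblasts they numbered 31, 204, 29 and 16 to 254, with 38 at the mitochondrial limit, 1 without Ppbp or Pf4 and 8 without EC genes. In ECs there were 1160 with no filter, 145 thinned and 52 to 900 with a replicate left out. Between ECs and fibroblasts there were 239 with no filter, 46 in DESeq2, 21 thinned, 300 without the highest cell and 20 to 386 with a replicate left out, and between mural cells and fibroblasts 16 with another scaling (RLE), 15 with no filter, 2 in DESeq2, 0 thinned, 4 without the highest cell and 5 to 26 with a replicate left out.

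Members called numbered 1 in mural cells (Acta2) with no filter, the block, the mitochondrial limit, no alignment and without Ppbp or Pf4. All genes called in these settings numbered 20 of 13343, 28 of 4084, 3 of 3909, 3 of 4064 and 3 of 2992. In fibroblasts the members called were 3 with no filter, beside 204 of 15299 genes. Without the highest cell 1 was called (Tagln, adjusted p = 0.0111), beside 79 of 7305 genes. In ECs 2 members were called with no filter, beside 1160 of 17042 genes. Between ECs and fibroblasts 2 were called with no filter, beside 239 of 17697 genes.

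Same-numbered libraries deviated together with a correlation of 0.25 in the whole lung, 0.18 in mural cells, -0.02 in fibroblasts and 0.31 in ECs. The labels tie the numbers to no shared animal, litter, batch or day, and with 2 pairs these values cannot settle whether the libraries are paired, so the fit without the block was kept. With the replicate block, 1 gene was called in the whole lung, 28 in mural cells, 45 in fibroblasts and 1032 in ECs.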

Other observations

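Acta2 was also detected in neutrophils, in 18.4% and 24.1% of cells in WT mice, against 19.5% and 12.6% in ERG CKO mice. Its level there was 57.3 and 113 CPM in WT and 57.6 and 55.4 CPM in ERG CKO, with 70 UMIs in all, 3 UMIs of Tagln and none of Myh11 in 265 cells. The T cell share of 0.153% was far lower at a higher median depth (6128 against 3398 UMIs).

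Over 48 class-by-library sums of the 13 classes, the genes whose profile lay closest to the mean profile of the members were Gucy1b3 (r = 0.94), Pde5a (0.93), Lims1 (0.92), Samd4 (0.91) and Maged2 (0.91) of 12669 genes ranked. Among the members Tpm2 and Myl9 had the closest profiles (r = 0.96), then Myh11 and Des (0.92), while Acta2 and Myl9 had an r of 0.31. Sums of 1 library share its depth, so these values are descriptions.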
